A study of Mus musculus with 2 samples.

Results

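The broad peaks are the regions of at least 1000 bp that were called accessible in 2 ATAC-seq peak lists of the neonatal mouse organ of Corti. They were chosen by their width alone, as the end minus the start of each deposited peak on chromosomes 1 to 19. The list labelled WT held 272 of them among 77092 peaks (0.353%), and the list labelled Bmi1-/- held 1556 among 99683 peaks (1.56%). ATAC-seq was carried out on the organ of Corti of P2 mice, with 10 mice pooled for each genotype and 1 library made per pool. The Bmi1-/- mice were homozygous for the Bmi1tm1Brn allele after backcrossing to C57BL/6J, and the WT mice were their littermates. Both pools contained the whole dissected organ, so that hair cells, supporting cells and adherent cell types were measured together, and a change in the number of cells of one type cannot be told apart from a change within cells.

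Tn5 transposase inserts adapters into DNA that is free of nucleosomes, and a peak is a stretch where such insertions exceed the local background. The promoters of widely expressed genes usually lie in CpG islands, which are kept free of DNA methylation and often have a long open stretch around the TSS. Bmi1 is a subunit of Polycomb repressive complex 1, a complex that keeps many developmental genes and the Cdkn2a locus repressed.

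With 1 library per genotype there was no spread between animals to test against, so no p-value is given. Each interval is a 95% interval, exact binomial if it belongs to a share and exact conditional if it belongs to a ratio of counts, and covers counting error only. All peaks of the list labelled WT had names that begin with bko, and all peaks of the list labelled Bmi1-/- had names that begin with bwt, so each direction below rests on GEO's sample labels. The commonest background at a summit, solved from the deposited values, was 6.32 reads for WT and 8.04 reads for Bmi1-/-, a ratio of 1.27, and its part in the number and width of the peaks was not tested. The lists contain no read totals. Of the 15 hair cell markers examined, 5 had a peak labelled WT at a TSS and 3 had one labelled Bmi1-/-. Pou4f3 and Myo7a were among those with none in either. Of the 15 supporting cell markers 5 and 8 had one, and of all 20807 protein-coding genes 6881 and 9947 had one.

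The reference sequences of some members are given here because they show the contrast between the broad peaks at promoters and those elsewhere. All are from RefSeq GRCm38.p6, written 5′ to 3′ in lower case with every CpG in capitals. The first 7 lie directly upstream of the most upstream TSS inside a broad peak and follow the strand of the gene. These genes are Ube2d3 (chr3:135437949-135438148, plus strand) and Hnrnpf (chr6:117906626-117906789, plus strand), which were broad in both lists, and Hnrnph1 (chr11:50376826-50376989, plus strand), Hspa8 (chr9:40800784-40800983, plus strand), Yy1 (chr12:108792773-108792972, plus strand), Cpeb2 (chr5:43232970-43233169, plus strand) and Cdkn2a (chr4:89294654-89294853, minus strand), which were broad in the list labelled Bmi1-/-.
Ube2d3: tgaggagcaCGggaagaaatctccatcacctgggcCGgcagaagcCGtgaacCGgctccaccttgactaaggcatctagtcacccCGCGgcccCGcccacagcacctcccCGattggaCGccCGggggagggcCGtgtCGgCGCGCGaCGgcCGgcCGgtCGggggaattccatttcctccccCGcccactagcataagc
Hnrnpf: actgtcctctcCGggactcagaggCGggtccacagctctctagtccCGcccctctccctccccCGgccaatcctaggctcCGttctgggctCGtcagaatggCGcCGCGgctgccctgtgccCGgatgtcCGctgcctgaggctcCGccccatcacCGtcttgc
Hnrnph1: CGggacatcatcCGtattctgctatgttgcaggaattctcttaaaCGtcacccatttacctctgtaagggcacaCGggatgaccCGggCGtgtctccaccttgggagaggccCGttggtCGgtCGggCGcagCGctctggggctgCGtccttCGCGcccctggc
Hspa8: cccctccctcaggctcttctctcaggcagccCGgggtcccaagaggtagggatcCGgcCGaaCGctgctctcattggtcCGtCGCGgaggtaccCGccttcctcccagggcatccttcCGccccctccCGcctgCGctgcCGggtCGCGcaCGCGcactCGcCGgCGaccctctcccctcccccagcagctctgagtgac
Yy1: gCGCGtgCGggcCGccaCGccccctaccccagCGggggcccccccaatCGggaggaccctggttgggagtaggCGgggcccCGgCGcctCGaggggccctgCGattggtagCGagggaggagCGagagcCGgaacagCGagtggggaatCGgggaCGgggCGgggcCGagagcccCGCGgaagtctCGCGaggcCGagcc
Cpeb2: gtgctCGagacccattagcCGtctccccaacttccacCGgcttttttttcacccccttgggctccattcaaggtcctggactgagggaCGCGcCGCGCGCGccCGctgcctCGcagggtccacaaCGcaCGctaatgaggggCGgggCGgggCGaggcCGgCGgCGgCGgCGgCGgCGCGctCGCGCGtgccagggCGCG
Cdkn2a: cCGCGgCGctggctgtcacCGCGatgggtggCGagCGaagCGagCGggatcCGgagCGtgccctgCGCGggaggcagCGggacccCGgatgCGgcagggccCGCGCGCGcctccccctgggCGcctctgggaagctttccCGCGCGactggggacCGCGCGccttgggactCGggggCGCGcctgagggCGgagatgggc
The windows of Ube2d3, Yy1, Cpeb2 and Cdkn2a hold 20, 25, 29 and 31 CpGs in 200 bases, and that of Hspa8 holds 19. The windows of Hnrnpf and Hnrnph1 hold 13 and 14 CpGs in 164 bases.

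The next 3 sequences are 240 bases around the summits of broad peaks far from any TSS. They lie at chr15:75086747-75086986, chr17:13590985-13591224 and chr9:124257574-124257813 (all plus strand), and the peaks were almost equally wide in both lists.
Chromosome 15: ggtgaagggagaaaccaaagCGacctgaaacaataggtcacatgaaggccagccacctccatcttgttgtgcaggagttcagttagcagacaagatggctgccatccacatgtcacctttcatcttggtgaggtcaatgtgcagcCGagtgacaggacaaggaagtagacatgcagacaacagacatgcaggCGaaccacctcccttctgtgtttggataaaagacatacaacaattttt
Chromosome 17: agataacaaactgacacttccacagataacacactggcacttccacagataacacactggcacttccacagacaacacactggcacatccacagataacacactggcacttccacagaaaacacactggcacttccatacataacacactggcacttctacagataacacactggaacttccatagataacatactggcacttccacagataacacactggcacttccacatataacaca
Chromosome 9: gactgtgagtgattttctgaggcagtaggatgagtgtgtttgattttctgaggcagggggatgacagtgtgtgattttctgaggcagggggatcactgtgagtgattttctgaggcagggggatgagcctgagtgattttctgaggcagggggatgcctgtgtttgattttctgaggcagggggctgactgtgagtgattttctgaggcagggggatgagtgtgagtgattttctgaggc
The first holds 3 CpGs and the others hold 0. The chromosome 17 window matched itself at 90.7% of its bases when shifted by 46 bases, and the chromosome 9 window at 87.1% when shifted by 31 bases. For the 7 promoter windows the best shift between 10 and 60 bases gave 34.7% to 40.6%. Both therefore consist of short units repeated in tandem, as can be read in the sequences.

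The number of broad peaks differed more between the lists than the number of narrower ones. The ratio of the list labelled Bmi1-/- to the list labelled WT was 1.14 for peaks under 300 bp (95% interval 1.13 to 1.15), 1.43 from 300 to under 500 bp (1.40 to 1.45) and 2.11 from 500 to under 1000 bp (2.04 to 2.19). For peaks of at least 1000 bp it was 5.72 (5.03 to 6.53), and for peaks of at least 1500 bp, with 209 and 21 peaks, it was 9.95 (6.34 to 16.4). The members labelled WT covered 334 kb and those labelled Bmi1-/- 1928 kb, which was 1.45% and 5.77% of all bases in peaks. Within the selected range the medians and quartiles of width were alike, with a median of 1168 bp (quartiles 1067 and 1304 bp) and 1166 bp (1070 and 1324 bp). The upper tails were not, since 21 of 272 and 209 of 1556 members reached 1500 bp. At the limit, 15 peaks labelled WT fell up to 10 bp short of it and 9 reached it by less than 10 bp, and 50 and 74 labelled Bmi1-/- did so. The partner of a peak is the peak of the other list that shares most bases with it. Just inside the limit among peaks labelled WT lay Hnrnpa2b1, Dcaf7 and Me2, all at 1001 bp, with partners of 1879, 464 and 348 bp. Kctd7, Gm44067 and Edem1 lay just outside it, with partners of 777, 231 and 1251 bp. Among peaks labelled Bmi1-/- Sertad2, Scai and Itga6 lay just inside, all at 1000 bp, with partners of 1414, 702 and 467 bp. Timm8b, Hey1 and Spef1 lay just outside, with partners of 770, 528 and 340 bp. The width in the other list thus varied widely on both sides of the limit.

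**Figure D1:**
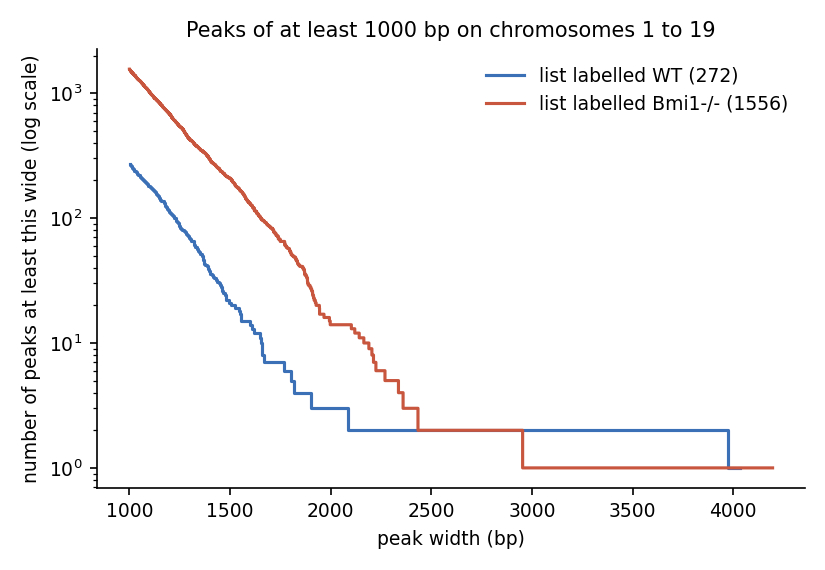
Number of peaks at least as wide as the value on the x axis (bp), on a log scale, for the list labelled WT (blue, 272 peaks) and the list labelled Bmi1-/- (red, 1556 peaks) on chromosomes 1 to 19. The lines first draw apart with width, to a ratio of 9.95 at 1500 bp, then meet and end at single peaks of 4033 and 4196 bp.

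The broad peaks were among the strongest of their lists. The deposited −log10 p of the members had a median of 8.23 for WT and 10.1 for Bmi1-/-, against 4.29 and 4.14 over all peaks. In the list labelled WT 225 of the 272 members lay in the strongest 10% of peaks, and in the list labelled Bmi1-/- 1322 of the 1556. Only 6 and 9 members lay below the median of their list. A median of 27.0 reads was piled up at the summits of the members labelled WT and of 35.5 reads at those labelled Bmi1-/-, whereas the deposited fold enrichment over background was 3.31 (quartiles 2.93 and 3.77) and 3.35 (2.93 and 3.85).

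Broad peaks lay at gene starts. The centre was within 3 kb of a TSS of GENCODE vM21 for 244 members labelled WT (89.7%, 85.5% to 93.0%) and for 1475 members labelled Bmi1-/- (94.8%, 93.6% to 95.8%). In the same lists this share was 28.6% and 25.3% of the peaks under 300 bp, 37.3% and 33.1% of those from 300 to under 500 bp, and 65.8% and 63.6% of those from 500 to under 1000 bp. The median distance from the centre to the nearest TSS was 124 bp and 116 bp. A TSS of a protein-coding gene lay inside 226 and 1372 members, and 5 and 24 others held TSSs of other gene types only. The number at promoters differed between the lists by a ratio of 6.05 (5.28 to 6.95), and the number elsewhere, 28 against 81, by a ratio of 2.89 (1.86 to 4.62).

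Many broad peaks spanned starts of genes on opposite strands. TSSs of both strands lay inside 41 of the 226 members with a protein-coding TSS in the list labelled WT (18.1%) and inside 223 of the 1372 in the list labelled Bmi1-/- (16.3%). Among peaks from 500 to under 1000 bp with a protein-coding TSS the share was 10.1% (214 of 2109) and 9.33% (404 of 4332). Wider intervals can hold more TSSs for their length alone, and its part was not tested. Examples in the list labelled Bmi1-/- were Hspd1 and Hspe1, which encode the mitochondrial chaperonin and its partner, in 1 peak of 1166 bp at chr1:55087425-55088590, and Hnrnpa2b1 and Cbx3, an RNA-binding protein and a heterochromatin protein, in 1 peak of 1879 bp at chr6:51469395-51471273. The peaks labelled WT at the starts of Hspd1 and Hnrnpa2b1 were 531 and 1001 bp wide.

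The reach of the peaks on either side of the TSS depended on which TSS was taken. From the TSS nearest to the centre of the peak, which tends to place the TSS near the middle, the stretch was longer downstream than upstream in 53.2% of the members labelled WT (46.6% to 59.8%), an interval that contains equal shares, and in 57.2% of those labelled Bmi1-/- (54.5% to 59.8%). The median reach was 572 bp upstream and 594 bp downstream for WT, and 572 and 636 bp for Bmi1-/-. In peaks from 500 to under 1000 bp the share was 55.0% and 58.8%. A measure chosen after the data had been seen took the most upstream TSS inside members that held TSSs of exactly 1 protein-coding gene. By its construction it leaves more of the peak downstream wherever a peak holds several TSSs. It gave 134 of 182 members labelled WT (73.6%, 66.6% to 79.9%) and 856 of 1134 labelled Bmi1-/- (75.5%, 72.9% to 78.0%), against 66.5% and 70.7% in peaks from 500 to under 1000 bp.

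**Figure D2:**
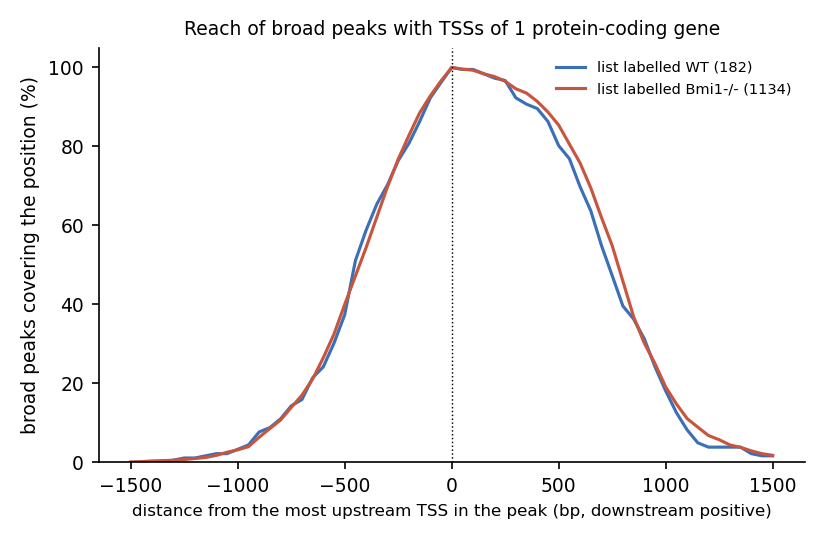
Share of broad peaks (%) that cover each distance (bp, downstream positive) from the most upstream TSS inside the peak, for members with TSSs of exactly 1 protein-coding gene (182 labelled WT, blue, and 1134 labelled Bmi1-/-, red). The lines of both lists run close together, and the downstream side (80.2% and 85.4% at 500 bp, against 37.4% and 40.0% upstream) is favoured by the choice of the most upstream TSS.

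The promoter members were rich in CpG. The ratio of observed to expected CpG had a median of 0.817 (quartiles 0.731 and 0.888) in the 244 promoter members labelled WT and of 0.817 (0.725 and 0.895) in the 1475 labelled Bmi1-/-. Promoter peaks under 300 bp had medians of 0.267 and 0.238, and those from 500 to under 1000 bp 0.770 and 0.744. A ratio of at least 0.6, a usual limit for CpG islands, was found in 223 and 1355 promoter members (91.4% and 91.9%). The members outside promoters differed in sequence, with medians of 0.114 and 0.165. Of these, 1 of 28 and 8 of 81 reached 0.6.

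**Figure D3:**
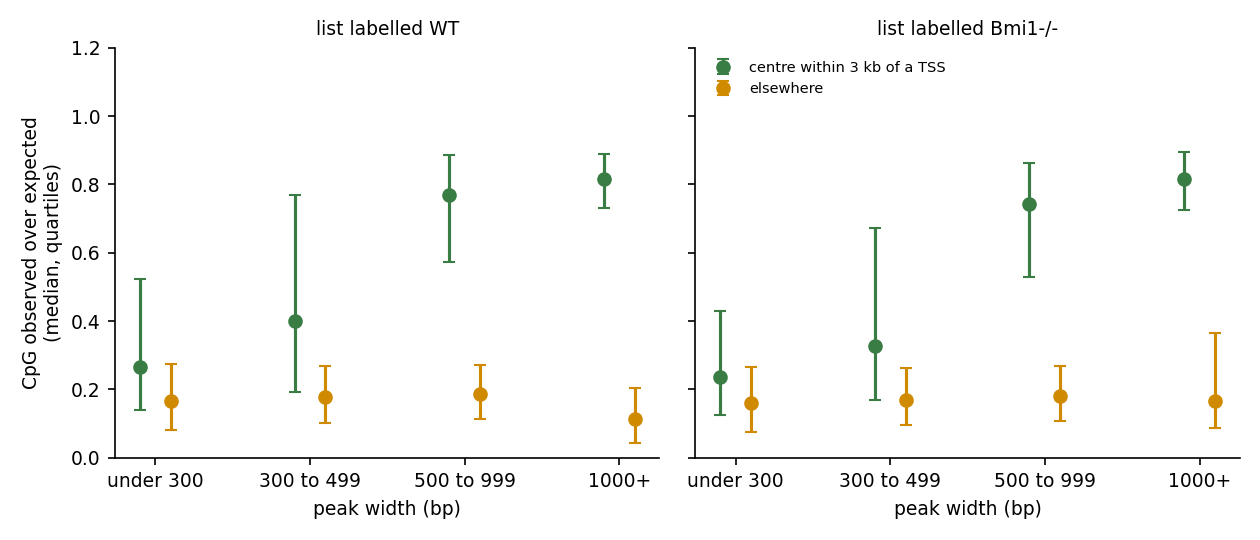
Ratio of observed to expected CpG (median and quartiles) by peak width (bp) for peaks with the centre within 3 kb of a TSS (green) and elsewhere (orange), in the list labelled WT (left) and the list labelled Bmi1-/- (right). Promoter peaks rise from 0.267 and 0.238 under 300 bp to 0.817 in both lists at 1000 bp and wider, and the others stay at or below 0.186.

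Short sequence motifs were counted in the 300 bp around the summits of the members and of all peaks. Matches to the exact letters on either strand were counted, and overlaps between motifs were not removed. GGGCGG, the GC box bound by SP and KLF factors, was present in 68.4% of the members labelled WT (62.5% to 73.9%) and in 73.3% of those labelled Bmi1-/- (71.0% to 75.5%), against 14.5% of all peaks in both lists. Among promoter peaks alone it was present in 75.4% and 76.5% of the members, in 63.2% and 59.8% of the peaks from 500 to under 1000 bp, and in 31.2% and 29.5% of all peaks under 1000 bp. CCGGAAG, a form of the ETS site, was present in 6.99% (4.26% to 10.7%) and 9.96% (8.52% to 11.6%), against 2.92% and 3.00% of all peaks. At promoters it was present in 7.79% and 10.4% of the members and in 10.1% and 11.7% of the peaks from 500 to under 1000 bp. GCATGCGC, within the NRF1 site, was present in 2.57% and 5.14%, against 0.995% and 0.951%, and TGACGTCA, the CRE, in 2.21% and 2.51%, against 0.492% and 0.519%. CACGTG, an E-box, was present in 7.35% and 9.25%, against 5.75% and 5.70%. CCAAT was present in 33.5% and 33.0% of the members, close to the 30.4% of all peaks in both lists. TGANTCA, the AP-1 site, was present in 1.84% (0.599% to 4.24%) and 2.89% (2.12% to 3.85%) of the members, fewer than the 7.77% and 7.76% of all peaks. TATAAA was likewise present in 4.04% (2.04% to 7.12%) and 2.70% (1.95% to 3.63%), against 8.77% and 8.07%. Among promoter peaks alone TATAAA was present in 3.28% and 2.31% of the members, against 6.36% and 5.99% of all peaks under 1000 bp. Against promoter peaks from 500 to under 1000 bp, with 3.28% and 2.75%, this difference was not seen. At promoters TGANTCA was present in 0.820% (0.0994% to 2.93%) and 2.92% (2.12% to 3.91%) of the members, against 3.84% and 4.63% of the peaks from 500 to under 1000 bp. For GCATGCGC the promoter values were 2.87% and 5.29% against 3.67% and 3.25%, for TGACGTCA 2.46% and 2.64% against 1.74% and 1.90%, and for CACGTG 8.20% and 9.15% against 7.91% and 8.54%. Most of the contrast with all peaks was thus smaller or absent against promoter peaks of the next width class.

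The width of the overlapping peak in the other list was not used to choose the members. Of the 272 members labelled WT, 270 overlapped a peak labelled Bmi1-/- (99.3%, 97.4% to 99.9%), and of the 1556 members labelled Bmi1-/-, 1422 overlapped a peak labelled WT (91.4%, 89.9% to 92.7%). In peaks from 500 to under 1000 bp these shares were 69.5% and 52.8%. The partner of a member labelled WT was 1134 bp wide at the median (quartiles 935 and 1426 bp), and 181 of the members (66.5%, 60.6% to 72.1%) had a partner that was itself broad. The partner of a member labelled Bmi1-/- was 554 bp wide at the median (384 and 811 bp), and 180 of the members (11.6%, 10.0% to 13.3%) had a broad partner. These 2 shares rest largely on the same pairs of broad peaks, set over 272 and 1556 members. Their difference therefore largely restates the difference in the number of broad peaks. Peaks labelled Bmi1-/- covered a median of 90.8% of the bases of a member labelled WT, whereas peaks labelled WT covered 52.1% of the bases of a member labelled Bmi1-/-.

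Several separate peaks labelled WT often lay under 1 broad peak labelled Bmi1-/-. Of the 1556 members labelled Bmi1-/-, 446 overlapped 2 peaks labelled WT and 43 overlapped 3 or 4. Of the 272 members labelled WT, 37 overlapped 2 or 3 peaks labelled Bmi1-/-. For the 489 members labelled Bmi1-/- that overlapped several, the gap between neighbouring peaks labelled WT had a median of 209 bp (quartiles 144 and 322 bp). The summed width of these peaks had a median of 827 bp against 1249 bp for the member. In 123 of the 489 every gap was at most 150 bp. At Pou2f1, Yy1 and the Rosa26 locus 3 peaks labelled WT lay under 1 member.

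The partners also differed in strength. Members labelled WT with a partner had a median −log10 p of 8.25, and their partners labelled Bmi1-/- had 13.2, with 245 of 270 in the strongest 10% of their list. Members labelled Bmi1-/- with a partner had a median of 10.4, and their partners labelled WT had 6.61, with 797 of 1422 in the strongest 10%. The median number of reads at the summit was 27.0 against 42.0 for the first set and 36.0 against 24.0 for the second.

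Over all 16788 pairs in which each peak overlapped only the other, the peak labelled Bmi1-/- was at least 1.5 times wider in 31.1% and the peak labelled WT in 10.0%. Among the 213 pairs with a broad peak labelled WT, 5 were at least 1.5 times wider in the list labelled Bmi1-/- and 16 in the list labelled WT, and the median ratio of widths was 0.995. Among the 919 pairs with a broad peak labelled Bmi1-/-, 611 were at least 1.5 times wider in that list and 1 in the other, with a median ratio of 1.97. Both sets were chosen by one of the widths in the ratio, and these counts are given as a description. Where both peaks were broad, in 156 pairs, the median ratio was 1.04 (quartiles 0.959 and 1.17).

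**Figure D4:**
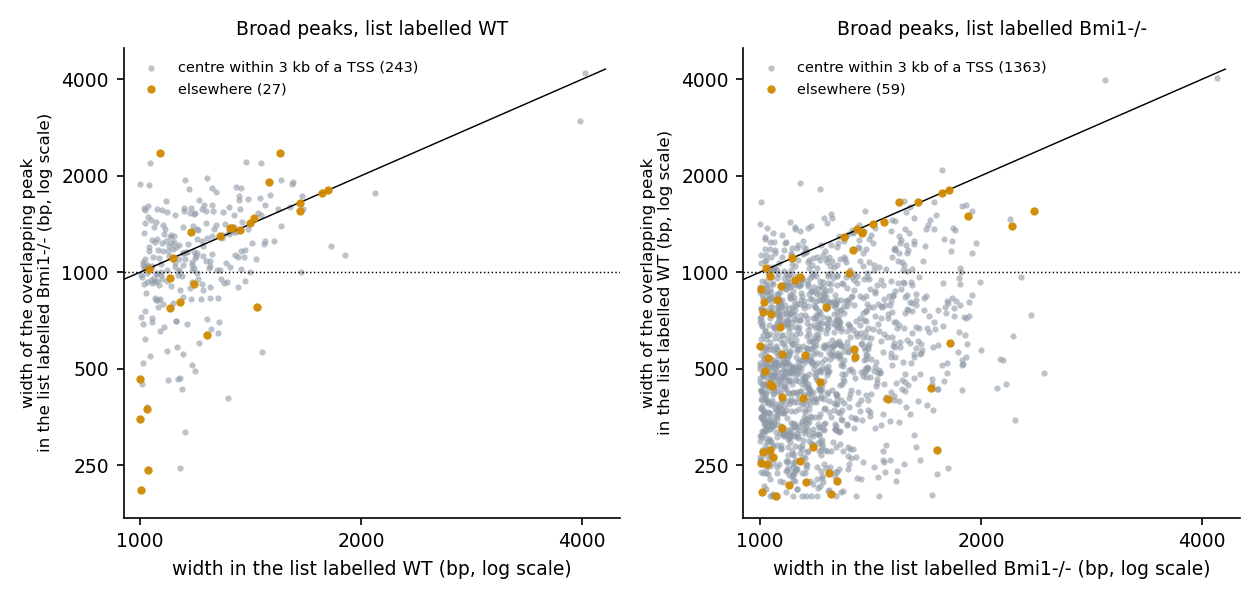
Width of each broad peak in its own list (x axis, bp, log scale) and of the overlapping peak that shares most bases in the other list (y axis, bp, log scale), for members labelled WT (left, 270 with a partner) and labelled Bmi1-/- (right, 1422). Grey points have their centre within 3 kb of a TSS and orange points lie elsewhere, and with equal widths on the solid line and 1000 bp on the dotted line, most partners on the right lie below 1000 bp, and a group of orange points follows the line of equal widths in both panels.

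After the repeated loci Gm26917 and Gm21738, the widest members labelled WT with a TSS inside were broad in both lists. The peak at Ube2d3, a ubiquitin-conjugating enzyme, was 2086 bp wide for WT (chr3:135437479-135439564, 26 reads at the summit) and 1772 bp wide for Bmi1-/- (60 reads). That at Wnk1, a kinase that controls ion cotransporters, was 1901 bp and 1136 bp wide. Peaks of 1659 bp at Smurf2, a ubiquitin ligase, and of 1667 bp at Skil, a corepressor of TGF-β signalling, were 1004 bp and 1571 bp wide in the list labelled Bmi1-/-. The peak at Fbxo30, another ubiquitin ligase subunit, was 1818 and 1209 bp wide. Those at Lnpep, a membrane aminopeptidase, and at Ppp2r3d, a phosphatase subunit, were 1555 and 1618 bp wide and reached 1945 and 1910 bp in the list labelled Bmi1-/-. The peak at the processed pseudogene Gm42642 was 1609 and 1885 bp wide. The order of the widths went either way.

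After the same 2 repeated loci, whose partners were broad, the 10 widest members labelled Bmi1-/- with a TSS inside had partners under 1000 bp. At Cpeb2, a regulator of mRNA polyadenylation, the peak was 2434 bp wide (chr5:43232490-43234923) and the partner 485 bp. At Fzd1, a Wnt receptor, it was 2337 bp wide (chr5:4755908-4758244) over 2 peaks labelled WT, the larger overlap with a peak of 736 bp. At Ncoa2, a nuclear receptor coactivator, the widths were 2270 bp and 964 bp, and at Kmt2e, a Trithorax-type protein, 2225 bp and 347 bp. The peak that holds the starts of Setd5 and of Gt(ROSA)26Sor, the ubiquitously active Rosa26 locus, was 2213 bp wide with 85 reads at the summit, and its partner was 633 bp wide. At Pou2f1, Lcorl and Fbxo11 the peaks were 2165, 2142 and 2120 bp wide and the partners 447, 533 and 535 bp. At Yy1, a zinc finger factor of many promoters, the widths were 2103 bp and 435 bp, and at the shared start of Zfp654 and Cggbp1 1998 and 574 bp. None of these genes had a broad peak in the list labelled WT.

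The largest ratios of width among pairs that overlapped only each other were 8.50 at Rasa1 (1717 bp labelled Bmi1-/- and 202 bp labelled WT), 7.40 at Egr1 (1740 and 235 bp), 7.25 at Pde4d (1451 and 200 bp), 6.76 at Pag1 (1352 and 200 bp), 6.40 at Top1 (1536 and 240 bp) and 6.36 at Tsc22d1 (1653 and 260 bp). In the other direction large ratios were 4.79 near Atoh8 (1002 bp labelled WT and 209 bp labelled Bmi1-/-), 4.24 near Slfnl1 (1025 and 242 bp), 2.88 near Me2, 2.68 at Adamts17 and 2.43 at Ptpn14 (1127 and 464 bp). The first 3 of these lay over 3 kb from a TSS, and all 5 were between 1001 and 1127 bp wide.

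Of the 20807 protein-coding genes on chromosomes 1 to 19, 271 had a TSS inside a broad peak labelled WT (1.30%) and 1604 inside a broad peak labelled Bmi1-/- (7.71%). As a share of the genes with a TSS inside any peak of the list, this was 3.94% of 6881 and 16.1% of 9947. There were 188 genes in both sets, 83 in the first only and 1416 in the second only. Of those 1416 genes, 346 had no peak labelled WT at a TSS, 130 had one under 300 bp, 329 one from 300 to under 500 bp and 611 one from 500 to under 1000 bp. Of the 83 genes, 5 had no peak labelled Bmi1-/- at a TSS and 67 had one from 500 to under 1000 bp.

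Genes of splicing and RNA binding had the largest share of broad peaks among the 14 functional lists. Of 37 genes, 5 had a TSS inside a broad peak labelled WT (13.5%, 4.54% to 28.8%, against 1.30% of all genes) and 16 inside a broad peak labelled Bmi1-/- (43.2%, 27.1% to 60.5%, against 7.71%). All 37 had a peak labelled Bmi1-/- at a TSS, so that the share among genes with a peak was also 43.2%, against 16.1%. The hnRNP genes led the list. The width was 1001 bp for WT and 1879 bp for Bmi1-/- at Hnrnpa2b1, 1372 and 1833 bp at Hnrnpk, 1557 and 1391 bp at Hnrnpf, 465 and 1715 bp at Hnrnph1, and 200 and 1701 bp at Hnrnpa1. At Srsf2, which encodes a splicing factor of the SR family, the widths were 841 and 1683 bp. At Srsf1 the order was the other one, with 1211 bp labelled WT and 826 bp labelled Bmi1-/-.

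Other housekeeping and inducible lists followed. Of 20 heat shock and ubiquitin genes, 1 was broad for WT and 6 for Bmi1-/- (30.0%, 11.9% to 54.3%). Among them were Hspa8, a constitutive chaperone, with 864 and 1228 bp, Dnaja1, its cochaperone, with 579 and 1158 bp, and Hsph1, with 1087 and 938 bp. Of 25 immediate early genes 1 and 6 were broad (24.0%, 9.36% to 45.1%, in the list labelled Bmi1-/-). At Jun, a subunit of AP-1, the widths were 1391 and 1173 bp, and at Jund 597 and 1238 bp. At Dusp1, a phosphatase of MAP kinases, they were 674 and 1104 bp, and at Myc 1004 bp in the list labelled Bmi1-/- with no peak at a TSS in the list labelled WT. Of 65 translation factor genes 2 and 9 were broad (13.8%, 6.53% to 24.7%), with Eif4e, the cap-binding protein, at 225 and 1804 bp and Eif4g2 at 791 and 1633 bp. The translation factor interval for Bmi1-/- contains the 7.71% of all genes, and the heat shock and immediate early intervals lie above it. For WT the intervals of these lists contain the 1.30% of all genes. Among genes with a peak labelled Bmi1-/- at a TSS, 35.3% of heat shock and ubiquitin genes were broad. For immediate early genes this was 28.6% and for translation factor genes 18.0%. All such genes had 16.1%, and with so few genes an excess on this base was not shown. The 358 numbered zinc finger genes had a share close to all genes, with 26 broad in the list labelled Bmi1-/- (7.26%, 4.80% to 10.5%) and 1 in the list labelled WT.

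Counted over all listed genes, those of the ribosome and of the respiratory chain had shares that could not be told apart from the 1.30% and 7.71% of all genes. Of the 76 genes of cytosolic ribosomal proteins 1 was broad for WT (1.32%) and 2 for Bmi1-/- (2.63%, 0.320% to 9.18%). Of the 77 nuclear genes of oxidative phosphorylation 0 were broad for WT (upper limit 4.68%) and 3 for Bmi1-/- (3.90%, 0.811% to 11.0%). Peaks at their TSSs were present at 59 and 50 genes in the list labelled Bmi1-/-, with median widths of 520 and 573 bp. Counted over these genes, 2 of 59 ribosomal protein genes (3.39%) and 3 of 50 oxidative phosphorylation genes were broad. All protein-coding genes with a peak labelled Bmi1-/- at a TSS had 16.1%. Both shares were thus lower on this base, and no interval was worked out for them. None of the 67 replication-dependent histone genes was broad in either list (upper limit 5.36%). A peak was present at 7 and 12 of them, beside 6881 and 9947 of all 20807 protein-coding genes.

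Among chromatin regulators and signalling pathways, 3 lists of 30 genes each held 5 to 7 broad genes labelled Bmi1-/- and 0 labelled WT. The interval of such a 0, up to 11.6%, contains the 1.30% of all genes. Of the Polycomb genes 5 were broad in the list labelled Bmi1-/- (16.7%, 5.64% to 34.7%). They were Ezh2, the H3K27 methyltransferase, with 1521 bp against 776 bp labelled WT, Suz12, its partner in Polycomb repressive complex 2, with 1386 against 585 bp, Pcgf5 with 1277 against 732 bp, Kdm2b with 1150 against 465 bp, and Pcgf1 with 1235 bp and no peak labelled WT at a TSS. Of 30 Trithorax and remodeller genes 7 were broad (23.3%, 9.93% to 42.3%), led by Kmt2c, an H3K4 methyltransferase, with 1773 against 678 bp. Of 30 genes of the Notch, Wnt and FGF pathways 5 were broad (16.7%, 5.64% to 34.7%), namely Fzd3 (1255 against 614 bp), Rbpj, the DNA-binding effector of Notch (1170 against 389 bp), Tcf7l1 (1170 against 224 bp), Fgf20, a growth factor of the prosensory domain (1128 against 525 bp), and Hey2, a Notch target in supporting cells (1110 against 252 bp). The intervals of the Polycomb list and of the pathway list contain the 7.71% of all genes, and that of the Trithorax list lies above it. Among genes with a peak labelled Bmi1-/- at a TSS the shares were 5 of 26 (19.2%), 5 of 18 (27.8%) and 7 of 23 (30.4%), against 16.1% of all such genes, and with so few genes an excess on this base was not shown. None of the 44 developmental transcription factor genes was broad in either list (upper limit 8.04%), an interval that contains the 1.30% and 7.71% of all genes. Of these 44 genes, 13 had a peak labelled WT at a TSS and 15 had one labelled Bmi1-/-, beside 6881 and 9947 of all 20807 protein-coding genes.

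Of the 7 genes of CDK inhibitors, 0 were broad for WT (upper limit 41.0%) and 1 for Bmi1-/- (14.3%, 0.361% to 57.9%). These intervals contain the 1.30% and 7.71% of all genes. The broad gene was Cdkn2a. Its peak of 1405 bp (chr4:89294189-89295593) held the most upstream TSS of the gene, at position 89294653, and no peak labelled WT overlapped it. It was a weak peak, with 21 reads at the summit and a −log10 p of 4.44, at the 57.9th percentile of its list. Cdkn2c had peaks of 436 bp labelled WT and 464 bp labelled Bmi1-/-, and Bmi1 itself peaks of 325 and 556 bp. Of 36 cell cycle genes 1 was broad for WT (2.78%) and 3 for Bmi1-/- (8.33%, 1.75% to 22.5%), close to the 1.30% and 7.71% of all genes, with Ccne2 at 1450 and 1529 bp, Ccne1 at 757 and 1396 bp and E2f1 at 1321 bp with no peak labelled WT at a TSS.

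Few markers of single cell types were broad, beside 1.30% of all protein-coding genes for WT and 7.71% for Bmi1-/-. Of 102 matched markers of the sensory epithelium (hair and supporting cells) and of 5 neighbouring tissues, 0 were broad for WT and 2 for Bmi1-/-. These were Hey2 and Flt1, a VEGF receptor of endothelium, whose peak of 1450 bp (chr5:147725007-147726456) had no overlap in the list labelled WT. Peaks at a TSS were present for 5 and 3 of 15 hair cell markers and for 5 and 8 of 15 supporting cell markers. Neuron markers had 3 and 4 of 15, glia markers 2 and 4 of 14 and mesenchyme markers 4 and 3 of 14. Blood and macrophage markers had 3 and 2 of 14, and endothelium markers 3 and 2 of 15. Of all 20807 protein-coding genes, 6881 and 9947 had such a peak. With so few markers holding a peak, a lack of broad ones among genes with a peak was not shown.

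**Figure D5:**
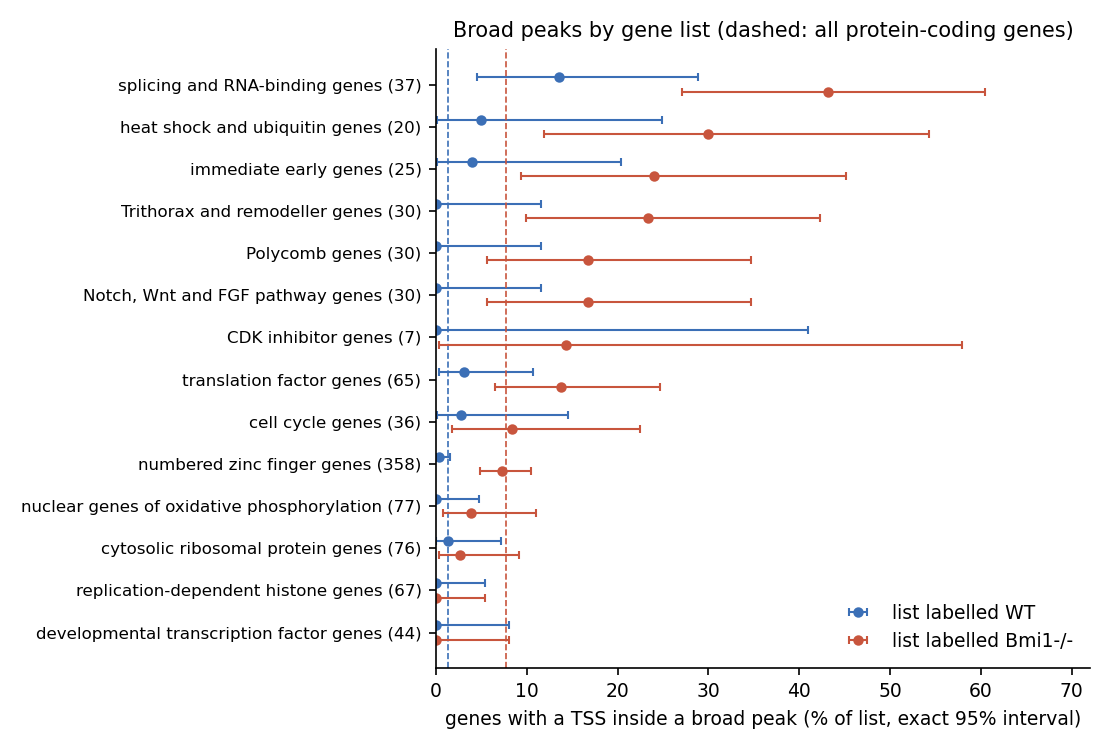
Share of each gene list (%, with exact 95% interval and the number of matched genes in brackets) with a TSS inside a broad peak labelled WT (blue) or labelled Bmi1-/- (red). The dashed lines mark all protein-coding genes, 1.30% and 7.71%, and the splicing and RNA-binding genes lie furthest to the right at 13.5% and 43.2%.

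Members without an overlap in the other list were rare for WT. The 2 members labelled WT were a peak of 1176 bp near Gm24295 (chr13:82050833-82052008) and one of 1091 bp far from any TSS (chr8:70995105-70996195). Of the 134 labelled Bmi1-/-, 112 were among the 1475 members at promoters and 22 among the 81 elsewhere. The share with an overlap was 92.4% at promoters and 72.8% elsewhere. The widest with a protein-coding TSS were at Slc35f1 (1665 bp), Gabpb1, a subunit of the ETS-type factor GABP (1640 bp), and at Wrn and Purg (1451 bp), where Wrn encodes a RecQ helicase. Their −log10 p was 7.05, 6.31 and 13.1. The widest of all, 1710 bp at chr8:71130486-71132195, lay 11999 bp from a TSS.

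The members outside promoters differed from those at promoters in masked repeats and in how closely the widths of broad pairs matched. There were 28 labelled WT and 81 labelled Bmi1-/-, and 16 in each list had a broad partner (57.1%, 37.2% to 75.5%, and 19.8%, 11.7% to 30.1%). At promoters the share with a broad partner was 67.6% and 11.1%. It was thus lower elsewhere for WT, with an interval that contains the promoter share, and higher elsewhere for Bmi1-/-. In the 12 pairs broad in both lists that overlapped only each other, 10 differed in width by at most 5% and the ratio ranged from 0.936 to 1.14. Among the 144 such pairs at promoters 36 differed by at most 5%. Repeats masked in the reference made up at least 50% of the sequence in 12 of the 28 members labelled WT (42.9%, 24.5% to 62.8%) and in 15 of the 81 labelled Bmi1-/- (18.5%, 10.8% to 28.7%). At promoters this held for 4 of 244 and 10 of 1475.

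The widest members outside promoters in the list labelled WT were at chr17:13589834-13591634, with 1801 bp against 1809 bp labelled Bmi1-/-, and at chr9:124256268-124258037, with 1770 against 1772 bp. The −log10 p was 59.9 and 67.8 for the first and 74.6 and 86.0 for the second. The peak at chr15:75085448-75087098 measured 1651 and 1642 bp, with 234 and 242 reads at the summit and a −log10 p of 142 and 143. A peak at chr4:156356471-156358123 measured 1653 and 1548 bp. The masked share was 68.2%, 78.4%, 58.1% and 56.6%, so masked repeats made up most of the letters in each. In the list labelled Bmi1-/- the widest were 2360 bp at chr4:3082117-3084476 and 2205 bp at chr13:119615394-119617598, with partners of 1552 and 1396 bp.

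The widest peaks of both lists lay at repeated loci that the annotation gives a TSS. The peak at Gm26917 (chr17:39843035-39847067), where the reference holds a copy of the 45S ribosomal RNA gene, was 4033 bp wide for WT and 4196 bp wide for Bmi1-/-, with 266 and 290 reads at the summit. The local background was 129 reads in the list labelled WT. The peak at Gm21738 on chromosome 14, of which 83.9% was masked, was 3973 bp wide with 200 reads for WT and 2954 bp wide with 201 reads for Bmi1-/-. A narrower peak at another repeated locus, Gm10722 on chromosome 9, 94.4% masked, was 1598 and 1600 bp wide with 266 and 270 reads. At these loci the reads at the summit differed by less than the ratio of 1.27 between the backgrounds, and reads from other copies cannot be told apart from reads of the locus.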

How the data were processed

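ATAC-seq was measured in 1 library of each genotype, and the samples were grouped by their GEO labels. The authors' notes name FastQC, BWA, MACS2, HOMER and the mm10 build, and versions are not given in the sources used here. Each deposited peak list holds positions, a score, the fold enrichment at the summit, and −log10 p and −log10 q values, all made by the authors with MACS2. The deposited score is −log10 p multiplied by 10 and cut to a whole number, and was not used. Both prefixes in the peak names contradict the labels, and the labels were followed.

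Reads at the summit and the local background were worked out for each peak by solving its enrichment and −log10 p together, with a pseudocount of 1, and 100% of the solved reads were whole within 0.05 reads. Members had a width of at least 1000 bp on chromosomes 1 to 19. A promoter peak had its centre within 3 kb of a GENCODE vM21 TSS, and the TSSs of 20807 protein-coding genes were searched. The genome was RefSeq GRCm38.p6, from which CpG, masked repeats and 8 motifs on both strands were read. An overlap was at least 1 bp.

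The members and all gene lists were chosen with earlier results of these data known. There were 14 function lists (immediate early, heat shock and ubiquitin, splicing and RNA-binding, cytosolic ribosomal protein, oxidative phosphorylation, replication-dependent histone, translation factor, numbered zinc finger, Polycomb, Trithorax and remodeller, developmental transcription factor, cell cycle, CDK inhibitor, and Notch, Wnt and FGF pathway genes) and 7 lists of 15 cell type markers each. Genes were named by rule: the widest members with a TSS inside, the widest without an overlap and outside promoters, the 6 largest ratios of width in each direction, up to 6 members of each list, those next to the width limit, and Bmi1 and Cdkn2c. One item that this rule names is not reported here. Intervals were exact. The computations were tested on simulated data and run in Python 3.11.15 with numpy 2.4.6, pandas 2.3.3, scipy 1.17.1 and matplotlib 3.10.9. Alternatives were another width minimum, promoter distance, overlap, q-value limit, joining of close peaks, TSS and sequence window.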

Additional observations from a re-analysis of the deposited data

Results flagged for a closer look

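Peaks of at least 1000 bp were also present outside chromosomes 1 to 19, which the comparisons did not use. On chromosome X there were 14 among 724 peaks labelled Bmi1-/- (1.93%, 1.06% to 3.22%) and 4 among 487 labelled WT (0.821%, 0.224% to 2.09%). On unplaced sequences there were 25 among 237 peaks labelled Bmi1-/- (10.5%, 6.94% to 15.2%) and 14 among 230 labelled WT (6.09%, 3.37% to 10.0%).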

How the results depend on the processing

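Across 61 results and 137 alternative values, 88 stayed within the counting error or within 1.5 times the main count, 48 moved by more and 1 turned its direction. The cause was not tested. With a minimum of 800 bp the members numbered 790 for WT and 3252 for Bmi1-/- (ratio 4.12), and with 1500 bp 21 and 209 (ratio 9.95). Joining peaks at most 150 bp apart gave a ratio of 4.52. The share at promoters was 76.2% for WT at 1500 bp and 90.3% for Bmi1-/- at 800 bp, 85.3% and 92.2% within 1 kb of a TSS, and 92.4% for Bmi1-/- with protein-coding TSSs. The share with an overlap was 89.7% and 35.6% with a reciprocal overlap of 50%, 96.6% and 84.5% at 800 bp, 100% and 98.1% at 1500 bp, and 97.1% and 69.4% with −log10 q of at least 2 in the other list. The median width there was 988 and 508 bp at 800 bp, 1728 and 747 bp at 1500 bp, and 724 bp for Bmi1-/- when overlapping peaks were summed. The share also broad was 76.2% and 7.66% at 1500 bp, and 16.7% for Bmi1-/- at 800 bp. Genes with a broad TSS numbered 717 and 3012 at 800 bp, and 13 and 229 at 1500 bp. At 800 bp the share for WT was 1.68% of zinc finger genes, and for Bmi1-/- 65.0% of heat shock, 67.6% of splicing, 11.8% of ribosomal protein, 15.6% of oxidative phosphorylation, 26.2% of translation factor, 13.7% of zinc finger and 40.0% of Polycomb genes. The CpG ratio for Bmi1-/- was 0.839 in 300 bp around the summit. From the most upstream TSS, an alternative chosen after seeing the data, 73.6% and 75.5% reached further downstream. Per kb of whole peak, the motif frequency in members over all peaks was 5.64 for GGGCGG in WT, and for Bmi1-/- 5.98 for GGGCGG, 3.10 for TGACGTCA, 1.35 for CACGTG, 3.43 for GCATGCGC and 0.883 for CCAAT, which was thereby lower instead of higher.

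No paired analysis was possible because there was 1 library per genotype and the labels give no replicate numbers, and leaving out a library would empty its group. Depth and genotype cannot be told apart, since the lists hold no read totals and the background differed by a ratio of 1.27.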
